A study of Mus musculus with 6 samples.

Results

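The genes described here carry the adrenergic signal into the cardiomyocyte: the receptors Adrb1, Adrb3, Adra1a and Adra1b, the receptor kinases Adrbk1 and Grk5, and the adenylyl cyclases Adcy5 and Adcy6. They were found as the rows of the array files whose gene name equals one of these symbols. All 8 genes were found, out of 35440 gene names on the array, and 13 of the 55681 probes belong to them. Adrbk1 is the older symbol of the gene now named Grk2, and the name in the files is kept here. Of the 8 genes, 7 had a probe well above background on all 6 arrays and were tested. Adrb3 was not tested.

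Total RNA came from cardiomyocytes freed from the heart by retrograde perfusion, 6 weeks after transverse aortic constriction (TAC), surgery that constricts the arch of the aorta and so raises the pressure the left ventricle works against. Adult mice lacking H19, a long non-coding RNA, were compared with their wild-type littermates, 3 arrays per genotype, and every animal of both groups had the operation. Unoperated hearts were not analysed here. The labels do not give the strain, the extent of the deletion, the cells in which it acts or the number of mice behind an array, so the p-values reflect only how far these samples differ from one another, which may be technical.

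Noradrenaline from sympathetic nerves and circulating adrenaline act on beta receptors, which use the stimulatory G protein to activate adenylyl cyclase. The cyclic AMP made in this way activates protein kinase A, which raises the force and rate of contraction. Receptor kinases phosphorylate the occupied receptor, so that arrestin binds and the signal ends. The alpha receptors Adra1a and Adra1b instead use a G protein that activates phospholipase C. Lasting stimulation of this pathway is a known feature of the overloaded and failing heart, where less of the main cardiac beta receptor and more of the kinase Adrbk1 have been described.

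The signal of a gene is that of its probes, single strands of 60 bases on the array. The sequences of 5 probes are shown because the values of Adrb1 and Adrb3 depend on which probe is read and because Adra1a rests on a single probe. They are written 5′ to 3′ as in the array files. The first Adrb1 probe and the first Adrb3 probe, which from knowledge of the receptor proteins lie in coding sequence, are given whole, and the first 30 bases are given of the others. The coordinates (mm9) are those of the whole probe.
Adrb1 coding probe, chr19:56797242-56797301, plus strand: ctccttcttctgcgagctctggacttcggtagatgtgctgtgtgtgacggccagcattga
Adrb1 downstream probe, chr19:56799215-56799274, plus strand: gttggaaggccattttgcacagtgttaggc
Adra1a probe, chr14:67352013-67352072, plus strand: aatatagagtcatcgatagctcaaaagaca
Adrb3 coding probe, chr8:28337864-28337923, minus strand: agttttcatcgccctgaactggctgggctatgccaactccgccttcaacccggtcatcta
Adrb3 downstream probe, chr8:28336268-28336327, minus strand: gggttcataggaagaagtcaaactattgga

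The remaining probes lie on chromosome 11 from 43589067 to 43589126 and from 43588147 to 43588206 (Adra1b), on chromosome 19 from 4286021 to 4286080 (Adrbk1) and from 61168035 to 61168094 (Grk5), and on chromosome 16 from 35304398 to 35304457, 35304551 to 35304610 and 35304041 to 35304100 (Adcy5). For Adcy6 the files list 15 of the 60 bases, on chromosome 15 from 98420404 to 98420418. The files do not say whether a probe lies in an exon, an intron or a UTR. Adrb1, Adrbk1 and Grk5 share chromosome 19.

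The labels were checked first on the deleted gene. H19 was not well above background on any knockout array and was so on all 3 wild-type arrays, with log2 signals, each taken relative to the 75th percentile of its array, of 1.69, 0.75 and 0.85 in wild type and -5.67, -6.41 and -5.96 in knockout. The labels and file headers do not say whether the probe lies in the deleted part. The same scale is used for all levels here. Between 48.8% and 58.6% of the spots on an array were well above background, and none was saturated. The defining cardiomyocyte markers were well above background on all 6 arrays (6 of 6). So were 6 of 6 fibroblast, 5 of 5 endothelial, 6 of 6 smooth muscle and pericyte and 5 of 5 macrophage markers, so the fractions also held RNA of other cells. In such bulk RNA, fewer cells of a type and less RNA per cell cannot be told apart.

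None of the 7 tested genes differed between the genotypes at an adjusted p under 0.05 (limma, adjusted over all 21888 genes tested), a threshold that 0.0365% of all genes passed. At an unadjusted p under 0.05 there was 1, Adra1a, against 7.92% of all genes. Of all genes, 1501 were under it with a lower signal in knockout and 233 with a higher one. Adra1a was under it in 9 of 16 alternatives, and not with quantile normalization, the authors' deposited values, median scaling, the replicate block, or when replicate 2 of either genotype or the third wild-type array was left out. The arrays of the genotypes did not overlap for 1 of the 7, again Adra1a, against 10.5% of all genes. Of the 7, 2 had a positive difference (knockout minus wild type) and 5 a negative one, with a median of -0.07 on the log2 scale beside -0.05 over all genes tested. Over all genes tested, 8736 differences were positive and 13152 negative. With so few arrays a missed threshold does not show that the genotypes are alike.

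**Figure D1:**
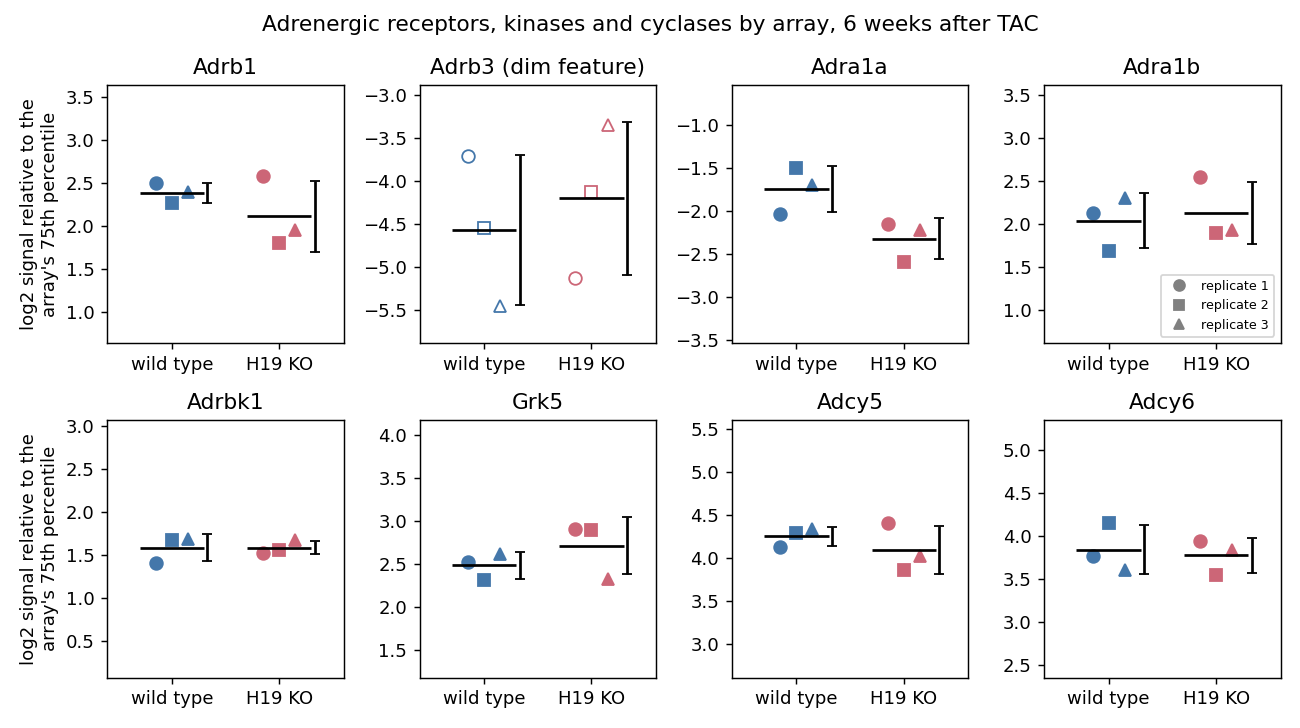
Log2 signal on the 75th percentile scale (vertical axis, each panel spanning the same number of log2 units) for each gene on the 3 wild-type (blue) and 3 H19 knockout (red) arrays. Marker shape gives the replicate number, horizontal lines the mean and bars ± 1 SD. Open markers for Adrb3 show a probe that was well above background on 1 array only. Adra1a is the 1 tested gene whose genotypes do not overlap on this scale.

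Adrb1 encodes the main beta receptor of the cardiomyocyte, which couples to the stimulatory G protein. Its brighter, downstream probe read 2.50, 2.27 and 2.39 on wild-type replicates 1 to 3 and 2.58, 1.80 and 1.95 on the knockout arrays. Knockout replicate 1 was the highest array of all and the other 2 knockout arrays were the lowest, so the genotypes overlapped. The means were 2.38 ± 0.11 in wild type and 2.11 ± 0.41 in knockout (SD, n = 3 each). The difference was -0.27 (SE 0.23, 95% interval -0.81 to 0.27, adjusted p = 0.882, limma). In folds this interval runs from 0.569 to 1.20 times the wild-type level.

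The coding probe of Adrb1 was far dimmer but well above background on all 6 arrays. It read -1.64, -2.85 and -3.05 in wild type and -2.90, -3.28 and -3.17 in knockout. A single array, wild-type replicate 1, stood above the other 5, and its difference of -0.60 (SE 0.37) had an adjusted p of 0.717 over all probes. The gap between the 2 probes, which start 1973 bases apart, was 4.14 log2 units on wild-type replicate 1 and between 5.08 and 5.48 on the other 5 arrays.

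Adrb3 encodes a beta receptor best known from fat cells. Neither of its probes was well above background on a wild-type array. The downstream probe was so on 1 knockout array, replicate 3, where it read -3.35. Knockout replicates 1 and 2 read -5.13 and -4.13, and the wild-type arrays -3.72, -4.54 and -5.46. The coding probe, well above background on none of the 6 arrays, read between -4.65 and -3.76. The lowest log2 signals well above background ranged from -4.30 to -3.20 between arrays, so no fold is given. Of the adipocyte markers, Lep was well above background on none of the 6 arrays and Plin1 on 2, while Adipoq, Cfd and Fabp4 were so on all 6.

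Adra1a encodes an alpha receptor that couples to phospholipase C, and its values lay lower on the knockout arrays. Its probe read -2.03, -1.50 and -1.69 in wild type and -2.14, -2.59 and -2.22 in knockout. All 3 knockout arrays were below all 3 wild-type arrays, most narrowly between wild-type replicate 1 and knockout replicate 1. The means were -1.74 ± 0.27 and -2.32 ± 0.24 (SD, n = 3 each), the lowest of the tested genes of the set. The difference was -0.58 (SE 0.20, 95% interval -1.06 to -0.10), or 1.49-fold lower in knockout, and did not pass the correction (adjusted p = 0.614, limma). By unadjusted p the gene was the 874th of 21888.

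The separation of Adra1a depended on how the arrays were scaled. With quantile normalization the difference was -0.36, and with each array scaled to its median probe it was -0.16, and under both the genotypes overlapped. This second scaling moves the median of all genes from -0.05 to 0.37. Relative to the median of all genes Adra1a lay at -0.53 under both the 75th percentile and the median scaling. That equality is fixed in advance, since each scaling subtracts a single value per array. With quantile normalization Adra1a lay at -0.34 relative to that median. On the 75th percentile scale the difference was -0.12 on slide 1, which held replicate 1 of each genotype. It was -0.81 on slide 2, which held replicates 2 and 3.

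Adra1b, the other alpha receptor of the set, showed no such separation. Its brighter probe read 2.13, 1.69 and 2.31 in wild type and 2.55, 1.90 and 1.94 in knockout. The difference was 0.09 (SE 0.25, 95% interval -0.50 to 0.68, adjusted p = 0.9996, limma), and its other probe gave -0.06 (SE 0.30). Both probes were lowest on wild-type replicate 2, and the difference of the brighter one was below 0 when knockout replicate 1 (-0.12) or wild-type replicate 2 (-0.090) was left out.

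A difference between 2 genes within an array does not depend on the scaling factor of that array, so 4 pairs were compared in this way. Adra1a minus Adra1b was -4.15, -3.19 and -4.00 in wild type and -4.69, -4.49 and -4.16 in knockout. With a single factor per array the knockout arrays again lay below the wild-type arrays, but only just. Wild-type replicate 1 was at -4.153 and knockout replicate 3 at -4.156. The change was -0.66 (exact permutation test, two-sided, p = 0.10, adjusted p = 0.40 over the 4 pairs). With 3 arrays against 3, 0.10 is the smallest p this test can give, and it is reached only when the genotypes do not overlap. Without wild-type replicate 2 the change was -0.37. With quantile normalization, which is not a single factor per array, the change was -0.42 and the genotypes overlapped. Wild-type replicate 1 then had the lowest difference of all arrays, with Adra1a at 7.155 and Adra1b at 11.77. Knockout replicate 1 had 7.53 and 12.08. The genotypes also overlapped for this pair with the authors' deposited values and with normexp background correction.

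The other 3 pairs overlapped between genotypes already with a single factor per array. Adrb1 minus Adrbk1, the receptor against its kinase, had a genotype difference of -0.27 (exact permutation p = 0.40), or -0.53 to -0.13 with 1 array left out. For Adrbk1 minus Grk5, the kinases, it was -0.23 (exact permutation p = 0.50), or -0.46 to -0.097 with 1 array left out. For Adcy5 minus Adcy6, the cyclases, it was -0.091 (exact permutation p = 0.70). Their adjusted p-values were 0.667, 0.667 and 0.70 in that order.

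**Figure D2:**
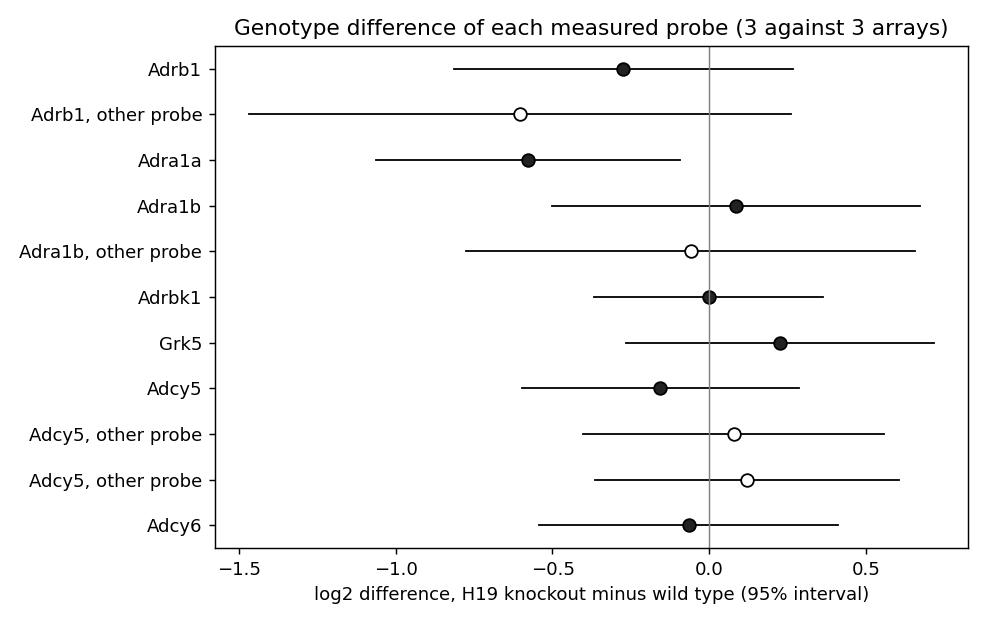
Log2 difference between H19 knockout and wild type (horizontal axis) with its 95% interval for each of the 11 probes well above background on at least 3 arrays. Filled circles mark the brightest probe of a gene and open circles its other probes. Only the interval of Adra1a, from -1.06 to -0.10 in the fit over genes, lies to one side of 0, without adjustment for the number of genes tested.

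Of the receptor kinases, Adrbk1 was the steadiest gene of the set. Adrbk1 is recruited to the membrane by G protein subunits, and it phosphorylates occupied beta receptors. It read 1.40, 1.67 and 1.68 in wild type and 1.53, 1.55 and 1.67 in knockout, a range over the 6 arrays of 0.28. The genotypes overlapped, with means of 1.59 ± 0.16 and 1.58 ± 0.08 (SD, n = 3 each). Its difference was -0.002 (SE 0.15), and the 95% interval ran from -0.36 to 0.36, or from 0.779 to 1.28 times the wild-type level.

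Grk5, the other receptor kinase, can also act in the nucleus. It read 2.53, 2.31 and 2.62 in wild type and 2.91, 2.90 and 2.33 in knockout. Knockout replicates 1 and 2 were above every wild-type array and replicate 3 was within their range. The difference was 0.23 (SE 0.21, 95% interval -0.27 to 0.72, adjusted p = 0.926, limma). It was positive under each of the 16 alternatives run, from 0.13 to 0.65, and passed in none.

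The cyclases Adcy5 and Adcy6 are the main sources of cyclic AMP in the cardiomyocyte and are both inhibited by calcium. The brightest Adcy5 probe read 4.13, 4.29 and 4.33 in wild type and 4.40, 3.85 and 4.02 in knockout. Knockout replicate 1 was the highest of the 6 arrays and the other 2 knockout arrays the lowest, as they were for Adrb1. The difference was -0.16 (SE 0.19, 95% interval -0.60 to 0.28, adjusted p = 0.9996, limma). The other 2 Adcy5 probes gave 0.12 (SE 0.21) and 0.08 (SE 0.20), so the sign differed between probes and the difference of the mean of the 3 probes was 0.014.

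Adcy6 read 3.76, 4.15 and 3.60 in wild type and 3.93, 3.55 and 3.83 in knockout, with the highest and a low value both in wild type. The difference was -0.07 (SE 0.20, 95% interval -0.54 to 0.41, adjusted p = 0.9996, limma). Its sign turned without wild-type replicate 2 (0.092) or knockout replicate 2 (0.046).

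The slides moved with these values. For all 7 genes the difference was larger on slide 1 (1 array against 1) than on slide 2 (2 against 2), and for 5 of the 7 it was above 0 on slide 1 and below 0 on slide 2. Over all genes it was larger on slide 1 for 53.9%, and the signs were opposite, in either direction, for 56.0%. For Adrb1 the difference was 0.08 on slide 1 and -0.45 on slide 2, for Adcy5 it was 0.27 and -0.37, and for Adcy6 it was 0.17 and -0.19. The exceptions were Adra1a, below 0 on both, and Grk5, above 0 on both with 0.38 and 0.15. Adra1b lay at 0.42 and -0.08, and Adrbk1 at 0.13 and -0.07.

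The marker signals of other cell types also varied between arrays. The summed linear signal of the 6 fibroblast markers, relative to the 75th percentile, ranged from 121 to 246 in wild type and from 180 to 408 in knockout, and it was highest on knockout replicate 2. The difference was above 0 for all 6 (median 0.65), and none was called. Knockout replicate 2 was also the lowest array for Adrb1, Adra1a, Adcy5 and Adcy6. It was not the lowest for Adra1b (1.90), Adrbk1 (1.55) or Grk5 (2.90). The summed signal of the cardiomyocyte markers ranged from 1560 to 1714 in wild type and from 1424 to 1593 in knockout, again lowest on knockout replicate 2. Without that array the difference was -0.12 for Adrb1, -0.44 for Adra1a and -0.038 for Adcy5. Leaving out knockout replicate 1 instead gave -0.51 for Adrb1, -0.66 for Adra1a and -0.31 for Adcy5, none of which passed the correction. Of the 4 atrial markers, Myl7, Myl4 and Sln had differences of -3.50, -2.78 and -4.82 and Nppa had 0.037, with no call. All 5 macrophage markers were below 0 (median -0.28) and the 3 tested lymphocyte markers above 0 (median 0.52, with Lck at 2.70), also with no call. Lck was well above background on only 1 wild-type array and on all 3 knockout arrays. Its difference was -0.15 on slide 1 and 4.12 on slide 2. The part of these markers in the receptor values was not tested.

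**Figure D3:**
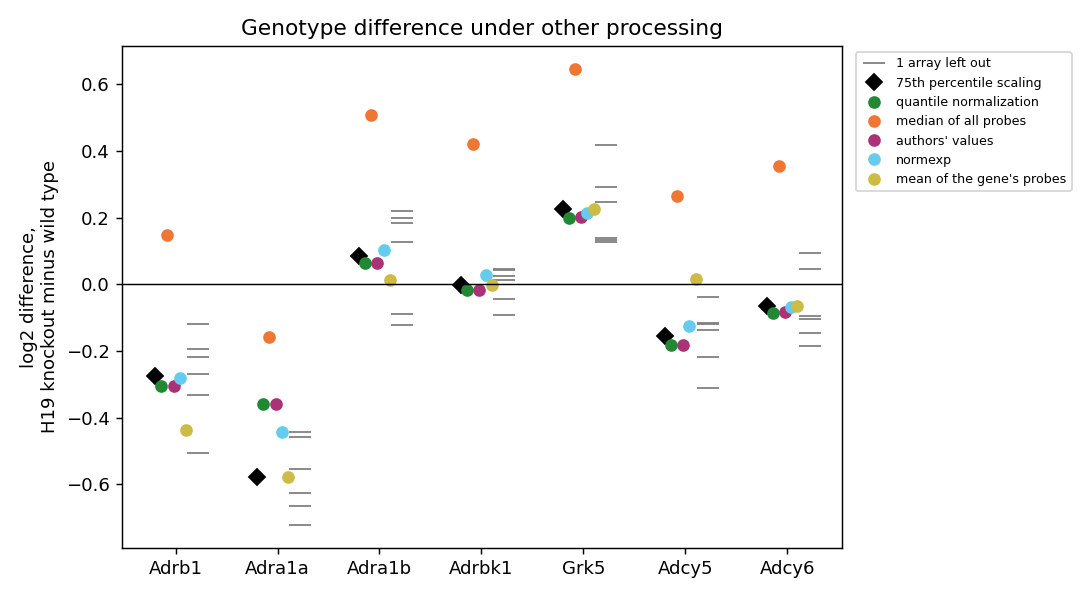
Log2 difference between H19 knockout and wild type (vertical axis) for the 7 tested genes under 75th percentile scaling (black diamonds), 5 other ways of processing (coloured circles) and with 1 array left out at a time (grey dashes). Scaling to the median probe places every gene higher by the same step of 0.42. Adra1a is below 0 and Grk5 above 0 under each setting shown.

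The step between the 2 scalings was the same for all 7 genes, since a scaling factor moves all genes of an array together. It turned the sign of Adrb1 (0.15), Adrbk1 (0.42), Adcy5 (0.26) and Adcy6 (0.36). No gene of the set passed an adjusted p of 0.05 under any of the 16 alternatives.

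The wider pathway was described with 71 further genes in 9 lists by role, of which 66 were tested. None passed in either direction over all genes, and none of the 66 had an unadjusted p under 0.05 (limma), where 7.92% of all genes did. That count was 9 with each array scaled to its median probe, 3 without wild-type replicate 3, and 0 or 1 under the other 14 alternatives. The count over all 21888 genes moved as well, from 1734 (7.92%) to 1802 with scaling to the median probe and to 3991 without wild-type replicate 3. The 3 of 66 are therefore not a rise beyond that of all genes. The median difference of the 66 was 0.04, with 42 genes above 0 and 24 below. Over all genes the median was -0.05, with 8736 above 0 and 13152 below. The arrays of the genotypes did not overlap for 2 of the 66, Creb1 and Prkce, where they did not for 10.5% of all genes. For Prkce this was only just so, with the highest wild-type array at -2.814 and the lowest knockout array at -2.811.

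Among the other receptors 4 of 5 were tested. Adra1d had a difference of 0.27 (SE 0.40) and Adra2c -0.08 (SE 0.28). The signal of Adra1d was low, with means of -3.57 in wild type and -3.29 in knockout. It was well above background on 1 wild-type and 2 knockout arrays. Adra2a was dim and not tested. The other receptor kinases and the arrestins, which cap phosphorylated receptors, had a median of -0.03, with Arrb2 at -0.23 (SE 0.20), Arrb1 at -0.18 (SE 0.34) and Grk6 at 0.12 (SE 0.14).

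The other adenylyl cyclases had the widest spread of differences of all lists. Adcy8 had -0.74 (SE 0.37, adjusted p = 0.663, limma), Adcy1 0.53 (SE 0.57) and Adcy7 0.48 (SE 0.58), and Adcy2, Adcy3 and Adcy10 were dim and not tested. The signals of Adcy8 and Adcy1 were low. Their wild-type and knockout means were -2.48 and -3.22 for Adcy8 and -2.99 and -2.46 for Adcy1. Adcy1 was well above background on 2 wild-type and 3 knockout arrays. Adcy7 read 2.86 on knockout replicate 2 and between 0.51 and 1.22 on the other arrays. The G proteins, which carry the signal from receptor to cyclase or phospholipase, had a median of 0.07 with 11 of 13 above 0, led by Gnb5 (0.35, SE 0.20), Gnai1 (0.22, SE 0.19) and Gnai3 (0.20, SE 0.22). The RGS proteins, which shorten G protein signals, had a median of -0.02, with Rgs2 at -0.36 (SE 0.24), Rgs5 at 0.18 (SE 0.29) and Rgs3 at -0.10 (SE 0.17).

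Of the protein kinase A subunits, anchors and Epac genes, 12 of 14 were above 0 with a median of 0.09. Prkar2a, a regulatory subunit, had 0.47 (SE 0.22, adjusted p = 0.637, limma), Akap6, an anchor at the nuclear envelope, 0.34 (SE 0.25) and the catalytic subunit gene Prkaca 0.26 (SE 0.21). Among the effectors, the transcription factor genes Creb1 and Crem had 0.40 (SE 0.18) and 0.27 (SE 0.19), and the calcium channel gene Cacna1c -0.21 (SE 0.21). The list's median was 0.03.

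Downstream of the alpha receptors, the protein kinase genes Prkd1, Prkce and Prkcd had 0.26 (SE 0.21), 0.18 (SE 0.15) and 0.18 (SE 0.18), with a list median of 0.05. The genes that break down or take up catecholamines had a median of -0.04, with Maob at -0.05 (SE 0.18) and Maoa at 0.04 (SE 0.15).

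**Figure D4:**
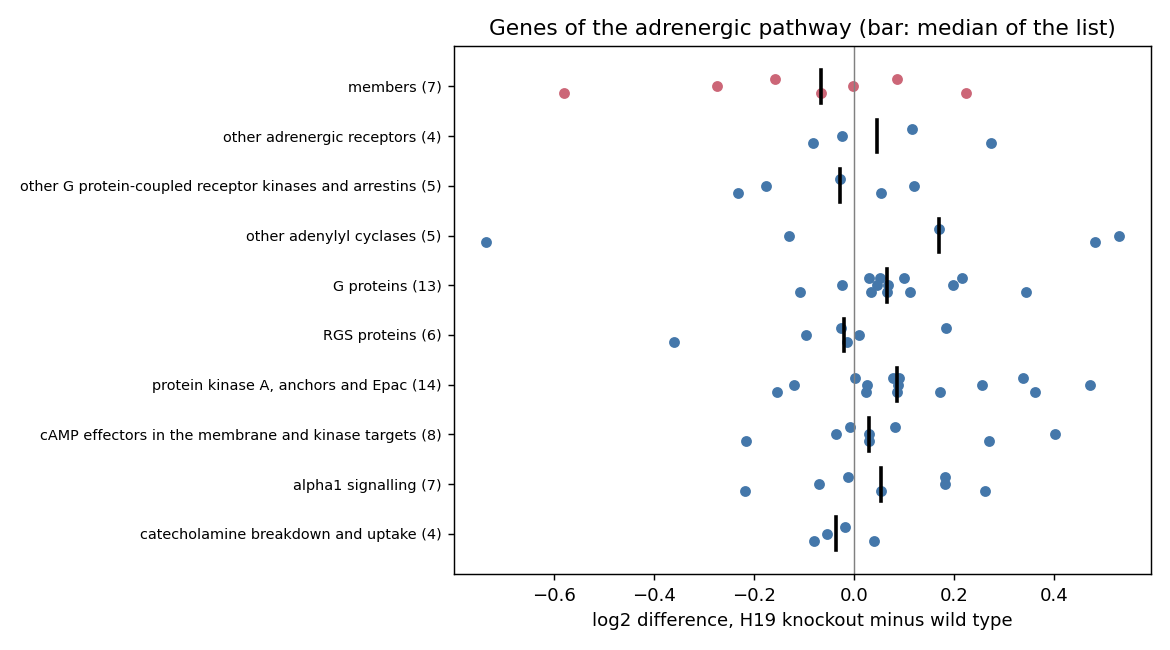
Log2 difference between H19 knockout and wild type (horizontal axis) for the 7 tested genes of the set (red) and the 66 tested genes of 9 pathway lists (blue), 1 point per gene, with the number of genes in parentheses and a black bar at each list's median. All list medians lie between -0.07 and 0.17, and the widest spread, from -0.74 to 0.53, is in the other adenylyl cyclases. The genes at the ends of that spread, Adcy8 and Adcy1, had low signals.

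The genes of the set followed one another across arrays to different degrees. Over the 6 arrays, which share their scaling, the Pearson correlation of Adrb1 was 0.86 with Adcy5 and -0.35 with Adrbk1, and that of Grk5 was -0.58 with Adra1a. Out of 13661 genes with established symbols, the 2 nearest in pattern were Hsf4 (0.999) and Bcl2l13 (0.989) for Adrb1, Slc9a8 (0.990) and Eprn (0.984) for Adra1a, and Scamp1 (0.997) and Crybg3 (0.996) for Adra1b. For Adrbk1 they were Atcayos (0.982) and Wdr44 (0.978), for Grk5 Cyba (0.990) and Morf4l2 (0.989), for Adcy5 Prpf4 (0.993) and Pla2g4b (0.989), and for Adcy6 Arhgap17 (0.989) and Noct (0.981). These are descriptions over 6 arrays of which 3 are knockout. A search of 13661 genes over so few arrays can return high correlations for unrelated genes too.

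Promoter sequences of RefSeq (GRCm38.p6, 300 bases each) were found for 4 of the 8 genes, with 5 promoters. Their GC content was 79.0% for Adcy5, 72.3% for Adrb1, 54.3% for Grk5 and 71.3% and 42.3% for the 2 of Adra1b, beside a median of 52.7% over 32851 promoters. On either strand, the GC box GGGCGG was in 3 of the 5 and in 35.7% of all promoters. The cyclic AMP response element TGACGTCA was in 0 of the 5 and in 1.79% of all, and its shorter part TGACG, which the full element also holds, was in the Adrb1 promoter and in 20.8% of all.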

How the data were processed

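The 6 arrays were grouped by the genotype in their titles, 3 per genotype. Per the file headers, Agilent Feature Extraction 10.7.3.1 made a background-subtracted, detrended intensity per spot, not normalized between arrays, with probe coordinates in mm9. The authors' deposited value table holds a linear intensity whose median is 69.7 on every array; it was used as an alternative.

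The log2 of the processed intensity was averaged over the spots of a probe, without the 3671 control spots and spots marked as outliers, and the array's 75th percentile over probes was subtracted. Probes well above background on at least 3 arrays were kept (29990), and the probe with the highest mean stood for its gene (21888 genes). Genotypes were compared with limma 3.58.1 (R 4.3.3, lmFit and eBayes, knockout minus wild type) and Benjamini-Hochberg adjustment over all genes at 0.05. Names were updated through the RefSeq table of GRCm38.p6 for 26425 probes by accession, 3988 by symbol and 826 by synonym. The fit was tested on simulated data.

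The genes and lists were chosen with earlier results of these data known. Named genes are all of the set, up to 3 of each list by smallest p, the 2 nearest in pattern, and H19; some genes of the lists are not reported here by name. The number of arrays limits the precision. The alternatives were normexp correction (offset 50), other scalings and filters, the mean of a gene's probes, a trended robust prior, blocks for replicate number and slide, and leaving out each array.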

Additional observations from a re-analysis of the deposited data

How the results depend on the processing

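Of all 21888 genes, 8 passed (2 higher, 6 lower in knockout). The count was 3 with quantile normalization (2 and 1) or the authors' deposited values, 119 with each array scaled to its median probe (102 and 17), 8 with normexp (3 and 5), and 1 with no filter on dim probes, with slide as a block, or with the replicate block. Leaving out 1 array gave between 1 and 4. The count for the 8 genes of the set and for the pathway lists was 0 under all 16 alternatives.

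Replicate 1 of both genotypes lay on slide 1, and replicates 2 and 3 lay on slide 2. Deviations from the group means correlated at -0.22, -0.05 and 0.04 for replicates 1, 2 and 3, and between -0.27 and 0.33 for unlike numbers. Whether the numbers pair the samples cannot be told from so few arrays. The replicate block gave -0.58 for Adra1a with an adjusted p of 0.531 (limma). Adra1a kept its sign under all 16 alternatives (-0.72 to -0.16, adjusted p from 0.296 to 0.9999), as did Grk5. Signs turned for Adrb1 (0.15), Adcy5 (0.26) and Adcy6 (0.36) with scaling to the median, for Adcy5 (0.014) with the mean of probes, and for Adrbk1 with normexp (0.028) and scaling to the median (0.42). Leaving out 1 array turned Adrbk1 (-0.093 to 0.046), Adra1b (-0.12 to 0.22), Adcy6 (-0.18 to 0.092) and the change of Adcy5 minus Adcy6 (-0.23 to 0.069), which was also 0.079 with the mean of probes. The turns under scaling to the median follow from its common step, since each gene's difference relative to the median of all genes was the same under both scalings (Adrb1 -0.23, Adcy5 -0.11). The cause of the others, beyond the array or probes left out or averaged, was not tested.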
